A study of Mus musculus with 49 samples.

Results

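Cathepsins are the proteases of the lysosome, and Cst3 encodes cystatin C, a secreted inhibitor of the cysteine cathepsins. The genes described here, chosen by name, were Ctsa, Ctsb, Ctsc, Ctsd, Ctsh, Ctsk, Ctsl, Ctss, Ctsz and Cst3. All 10 were among the 14896 genes of the macrophage expression table. 9 were in each naive T cell table (of 20214 and 19454 genes), where Ctsh was not analysed here. 8 were in each Th17 table (of 19563 and 19547 genes), where Ctsh and Ctsk were not analysed here.

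C57BL/6 mouse cells of 3 genotypes were compared: wild type (WT), cells that lacked the ETS-family transcription factor Elf4 (knockout, KO) and cells with the W250S change in Elf4. Macrophages were derived from bone marrow (BMDM) over 7 days in the growth factor M-CSF. They were WT or KO and had 0, 4 or 16 h of bacterial lipopolysaccharide (LPS, 100 ng/ml), with 3 libraries in each of the 6 groups. Naive CD4 T cells came as 2 sets, 4 libraries labelled KO beside 3 WT and 3 W250S beside 3 other WT. CD4 T cells were also cultured for 48 h as pathogenic Th17 cells (IL-6, IL-1 beta and IL-23) or non-pathogenic Th17 cells (IL-6 and TGF-beta), each with 3 W250S and 3 WT libraries, and open chromatin was measured by ATAC-seq in naive CD4 cells (3 labelled KO, 3 WT). The header of the macrophage table gives each library a mouse number of its own. For the T cells the labels number the libraries but do not say which came from separate animals or cultures, so their p-values measure the spread between these libraries, which may be technical.

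Lysosomal proteases are made as inactive precursors, delivered to acidic compartments and activated there by cleavage. In macrophages they degrade phagocytosed material and cut antigen and the invariant chain so that MHC class II can load peptide. Many lysosomal genes share a promoter element, an extended E-box called CLEAR, that the factors Tfeb, Tfe3 and Mitf bind.

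Macrophage libraries held 11.5 to 16.8 M reads and T cell libraries 46.6 to 70.5 M, as the step between low values shows. Elf4 RNA was lower in KO macrophages at each time (22.0 ± 3.23 against 105 ± 7.96 CPM, reads scaled to a common library total, at 0 h, SD, n = 3 each). It was not lower in the naive libraries labelled KO (189 ± 13.8 CPM, n = 4, against 191 ± 4.87, n = 3), which are therefore called "labelled KO" throughout. All 10 macrophage markers of a list of 10 were at 1 CPM or more in every BMDM library, and all 8 T cell markers in every T cell library. Macrophage marker sums were higher in KO without overlap at 4 h, at 18137 to 19253 CPM against 16551 to 17629. At 16 h they were 27172 to 33460 against 21770 to 22971. Neutrophil sums at 16 h were also higher (76.2 to 103 against 27.3 to 38.3). Of the 7 neutrophil markers found, only 1 to 4 in a KO library and 1 to 2 in a WT library reached 1 CPM then. Naive T cell (54.6 to 60.0 against 76.0 to 106) and B cell sums (6.96 to 9.13 against 9.76 to 11.9) were lower at 16 h. Only 1 of the 6 B cell markers found and 5 of the 7 naive T cell markers reached 1 CPM, so these sums do not measure cell content. The part of these gaps in the KO comparisons was not tested. Among the BMDM libraries KO replicate 2 stood apart in stromal cell markers, which summed to 2205, 1805 and 3276 CPM at 0, 4 and 16 h, against 425 to 1672 CPM in the other 15 libraries. Calls that changed without it, and the KO minus WT differences of Ctsk, are given with and without it. In bulk RNA, fewer cells of a type and less RNA per cell cannot be told apart.

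The 10 genes together took 3.06 ± 0.224% of all reads of WT macrophages before LPS, 2.14 ± 0.132% at 4 h and 2.38 ± 0.144% at 16 h (SD, n = 3). KO macrophages gave 2.82 ± 0.395%, 2.00 ± 0.139% and 2.18 ± 0.281% at the same times. In T cells the members found took 0.0210% to 0.0279% of reads. CPM does not correct for transcript length, so levels are compared between libraries and not between genes.

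Ctsc rose most of the 10 with LPS at 4 h. It encodes dipeptidyl peptidase 1, the cysteine cathepsin that activates granule serine proteases by trimming their ends (chr7:88278024-88315861, GRCm38). WT libraries held 797, 709 and 694 CPM at 0 h, 2622, 2504 and 2434 at 4 h and 2292, 1947 and 2052 at 16 h. KO libraries held 854, 799 and 902 CPM at 0 h, 2690.4, 2464 and 2643 at 4 h and 2334, 2298 and 2309.7 at 16 h. No library with LPS overlapped any without it in either genotype. The rise at 4 h was 3.44-fold in WT (log2 change 1.78, limma adjusted p = 9.902e-13) and 3.05-fold in KO (1.61, adjusted p = 4.38e-12). At 16 h it was 2.86-fold in WT and 2.72-fold in KO. Between 4 and 16 h Ctsc fell in WT by 0.27 on the log2 scale (adjusted p = 0.00729), and the KO value was -0.17 (adjusted p = 0.0755).

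Ctsz was highest at 16 h. It encodes cathepsin X, a cysteine carboxypeptidase (chr2:174427494-174439039). WT libraries held 677, 576 and 605 CPM at 0 h, 683, 651 and 708 at 4 h and 1847, 1825 and 1865 at 16 h, and KO libraries 575, 549 and 643, then 657, 656 and 709, then 1761, 1685 and 1869. All 6 libraries at 16 h stood above all 12 others. The change by 16 h was 2.98-fold in WT (log2 1.58, adjusted p = 6.03e-12) and 3.01-fold in KO (1.59, adjusted p = 1.05e-11). At 4 h it was 0.14 in WT (adjusted p = 0.104, and 0.01203 with the replicate number as a block) and 0.20 in KO (adjusted p = 0.0254). With each library rescaled to the median gene it was called at 4 h in both, at 0.99 in WT (adjusted p = 3.73e-08) and 0.99 in KO (adjusted p = 3.85e-08), beside 2.01 and 1.91 at 16 h. In CPM the KO call at 4 h ended without KO 0 h replicate 1 or 2 or KO 4 h replicate 3, and without KO replicate 2 at all times (0.17).

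Ctsh, an aminopeptidase of the cysteine class (chr9:90054267-90076095), was also higher at 16 h than at 0 h. WT libraries held 239.7, 191 and 213 CPM at 0 h, 192, 153 and 173 at 4 h and 334, 278 and 311 at 16 h. KO libraries held 203, 196 and 277 CPM, then 178, 176 and 194, then 333, 319.8 and 443. KO replicate 3 was the highest KO library at each time. The rise from 0 to 16 h was 1.43-fold in WT (log2 0.52, adjusted p = 0.00248) and 1.62-fold in KO (0.70, adjusted p = 0.000219). The WT value at 4 h was -0.31 (adjusted p = 0.0415), but rescaled to the median gene it was 0.53 (adjusted p = 0.00459), and the first call ended without WT 0 h replicate 1 or 3 or WT 4 h replicate 2 or 3.

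That rescaling matters for every change with LPS. In CPM most genes were lower after LPS: the median gene changed by -0.81 (log2) in WT at 4 h and by -0.41 at 16 h, and by -0.77 and -0.30 in KO. Of all 12058 genes tested, 86.8% were called at 4 h in WT (15.6% up, 71.3% down) and 74.8% at 16 h (18.3% up, 56.5% down). Of the 10 genes 7 were called at 4 h in WT (1 up, 6 down) and 7 at 16 h (3 up, 4 down), total shares under those of all genes. KO gave 7 at 4 h (2 up, 5 down) beside 86.4% of all genes (15.6% up, 70.8% down) and 8 at 16 h (3 up, 5 down) beside 67.9% (17.8% up, 50.1% down). With each library divided by its median ratio to the average library, 4 rose and 0 fell in WT at 4 h, beside 72.6% of all genes called (33.1% up, 39.5% down), and 3 rose and 1 fell at 16 h, beside 67.4% (32.3% up, 35.2% down). In KO the rescaled counts were 3 up and 0 down at 4 h, beside 72.1% of all genes (32.5% up, 39.6% down), and 3 up and 1 down at 16 h, beside 61.0% (29.8% up, 31.2% down). The rises of Ctsc at both times and of Ctsz and Ctsh at 16 h, and the fall of Ctsd at 16 h, were called under both scalings in both genotypes.

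**Figure D1:**
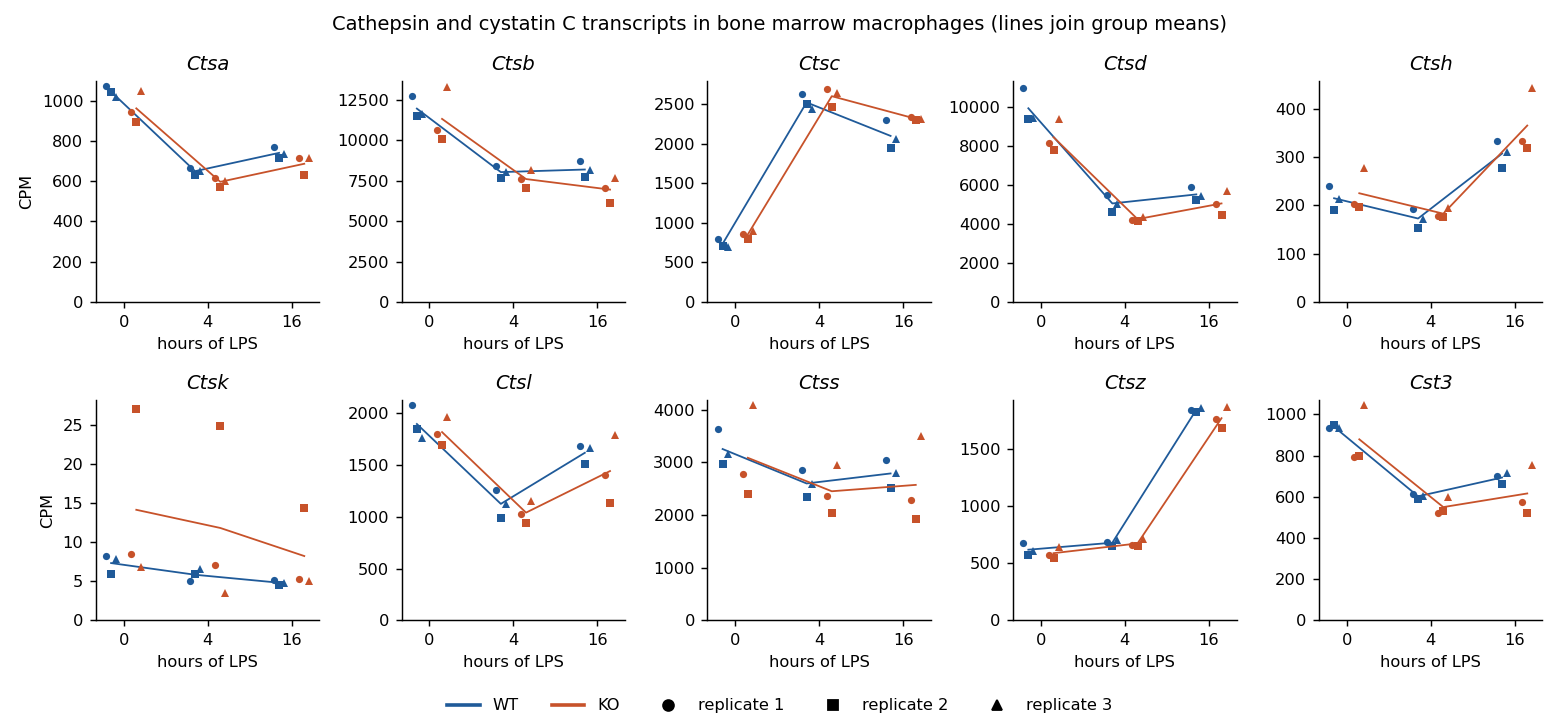
CPM of the 10 genes in each of the 18 macrophage libraries, by hours of LPS (1 panel a gene), with WT in blue, KO in orange, replicates 1, 2 and 3 as circle, square and triangle, and lines joining group means. Ctsc is high at 4 and 16 h, Ctsz and Ctsh are high at 16 h, and KO replicate 2 carries the high Ctsk values.

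Ctsd fell in CPM at both times, and at 16 h also after rescaling. It encodes the main aspartic endopeptidase of the lysosome (chr7:142375910-142387827). WT libraries held 10986, 9367 and 9439.5 CPM at 0 h, 5481, 4636 and 5031 at 4 h and 5884, 5205 and 5451 at 16 h. KO libraries held 8145, 7795 and 9398 CPM, then 4225, 4138 and 4374, then 5007, 4457 and 5685. All libraries with LPS were below all libraries without it. In WT the change was -0.98 at 4 h (adjusted p = 4.83e-07) and -0.12, not called, after rescaling. At 16 h it was -0.85 (adjusted p = 4.64e-06) and -0.41 after rescaling (adjusted p = 0.0164). The KO values at 16 h were -0.74 and -0.42 (adjusted p = 2.63e-05 and 0.0174).

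Ctsa, Ctsb, Ctsl and Cst3 were lower in CPM after 4 h of LPS in WT, each by less than the median gene. Ctsa encodes protective protein, a serine carboxypeptidase that also stabilises lysosomal beta-galactosidase and neuraminidase (chr2:164832872-164841032). WT libraries held 1072, 1042 and 1019 CPM at 0 h, 666, 633 and 650.0 at 4 h and 769.7, 717 and 734 at 16 h. KO libraries held 941, 896 and 1048 CPM, then 616, 571 and 603, then 715, 631 and 713. Its log2 change at 4 h was -0.68 in WT (adjusted p = 6.73e-08), which became 0.17, not called, after rescaling.

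Ctsb, a cysteine protease with endopeptidase and carboxypeptidase activity (chr14:63122462-63145923), was lower at both times. WT libraries held 12754, 11489 and 11659.7 CPM at 0 h, 8428, 7664 and 8014 at 4 h and 8704, 7717 and 8166 at 16 h. KO libraries held 10613, 10061 and 13316 CPM, then 7599, 7068 and 8149, then 7051, 6148 and 7659.5. The groups with LPS did not overlap those without it, and the WT change at 4 h was -0.57 (adjusted p = 0.000456), or 0.28, not called, after rescaling. From 4 to 16 h the value was 0.03 in WT (adjusted p = 0.855) and -0.13 in KO (adjusted p = 0.359).

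Ctsl, a cysteine endopeptidase (chr13:64361890-64370772), was lower at 4 h and nearer its starting level at 16 h. WT libraries held 2078, 1852 and 1764 CPM, then 1264, 988 and 1126, then 1681, 1514 and 1663. KO libraries held 1801, 1694 and 1964 CPM, then 1025, 945 and 1154, then 1409.6, 1131 and 1789. In WT the change was -0.76 at 4 h (adjusted p = 4.79e-05, 0.09 and not called after rescaling) and 0.53 from 4 to 16 h (adjusted p = 0.00194, 0.11 and not called after rescaling). Its KO value at 16 h against 0 h, -0.36 (adjusted p = 0.0274), was no longer called without KO 0 h replicate 1 or 3 or KO 16 h replicate 1 or 2, nor without KO replicate 2 at all times (-0.24).

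Cst3, the inhibitor (chr2:148871722-148875512), stood at 936, 947 and 936 CPM in WT at 0 h, 613, 589 and 606 at 4 h and 703, 661 and 716 at 16 h. KO libraries held 795, 797 and 1046 CPM, then 521, 530.3 and 599, then 577, 520.1 and 752. In WT every library with LPS was below every library without it. The WT changes were -0.64 at 4 h (adjusted p = 5.66e-05) and -0.44 at 16 h (adjusted p = 0.00256), which became 0.21 and -0.01, neither called, after rescaling.

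Ctss did not pass the test at either time, although the fit with the replicate number as a block called it at both times in both genotypes. Cathepsin S completes invariant chain degradation in antigen-presenting cells, and it keeps activity at neutral pH (chr3:95526786-95556405). WT libraries held 3634, 2972 and 3148 CPM at 0 h, 2860.2, 2348 and 2585 at 4 h and 3039, 2519.7 and 2804 at 16 h. KO libraries held 2784, 2389 and 4082 CPM, then 2368, 2029.5 and 2952, then 2288, 1923 and 3502. KO replicate 3 was the highest and KO replicate 2 the lowest KO library at each time, and groups of different times overlapped in KO. The WT changes were -0.32 at 4 h (adjusted p = 0.1497) and -0.22 at 16 h (adjusted p = 0.341). With the replicate number as a block the same changes were called (adjusted p = 2.38e-06 and 0.000185), as were those of Ctsl (-0.23, adjusted p = 0.000986) and Ctsk (-0.51, adjusted p = 0.00325) at 16 h. In KO at 4 h the block called Ctss (-0.31, adjusted p = 0.0139, from 0.164) and Ctsh (-0.28, adjusted p = 0.0121, from 0.0631). In KO at 16 h the block called Ctss (-0.27, adjusted p = 0.0365) and Ctsk (-0.62, adjusted p = 0.0129). After rescaling the WT Ctss value at 4 h was 0.53 (adjusted p = 0.0473), the opposite sign.

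From 4 to 16 h the median gene was 0.35 (log2) higher in WT and 0.43 in KO. Of all genes 73.2% were called in WT (51.0% up, 22.1% down) and 75.4% in KO (55.7% up, 19.6% down). Of the 10 genes Ctsa, Ctsh, Ctsl and Ctsz were higher and Ctsc lower in WT, and the same 4 higher in KO. Ctsz (1.44 in WT, 1.39 in KO) and Ctsh (0.83 and 0.98) stayed higher after rescaling, at 1.02 and 0.41 in WT and 0.92 and 0.51 in KO. After rescaling 5 were called in WT (2 up, 3 down), beside 69.7% of all genes (34.3% up, 35.4% down), and 6 in KO (2 up, 4 down), beside 69.4% (35.3% up, 34.0% down). The 3 that fell in WT were Ctsa (-0.23, adjusted p = 0.0333), Ctsb (-0.39, 0.0369) and Ctsc (-0.69, 1.07e-05). In KO they were Ctsa, Ctsb (-0.60), Ctsc (-0.64) and Cst3 (-0.32). The Ctsa call thus turned in direction, from 0.19 in CPM, where it lost its call without WT 16 h replicate 1 or WT 4 h replicate 2 or 3. In KO it turned from 0.20 to -0.27, and in CPM it lost its call without KO 16 h replicate 1 or 3 or KO 4 h replicate 2. With the replicate block 8 of the 10 were called in WT (7 up, 1 down), the block adding Cst3 (0.20), Ctsd (0.13) and Ctss (0.10).

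**Figure D2:**
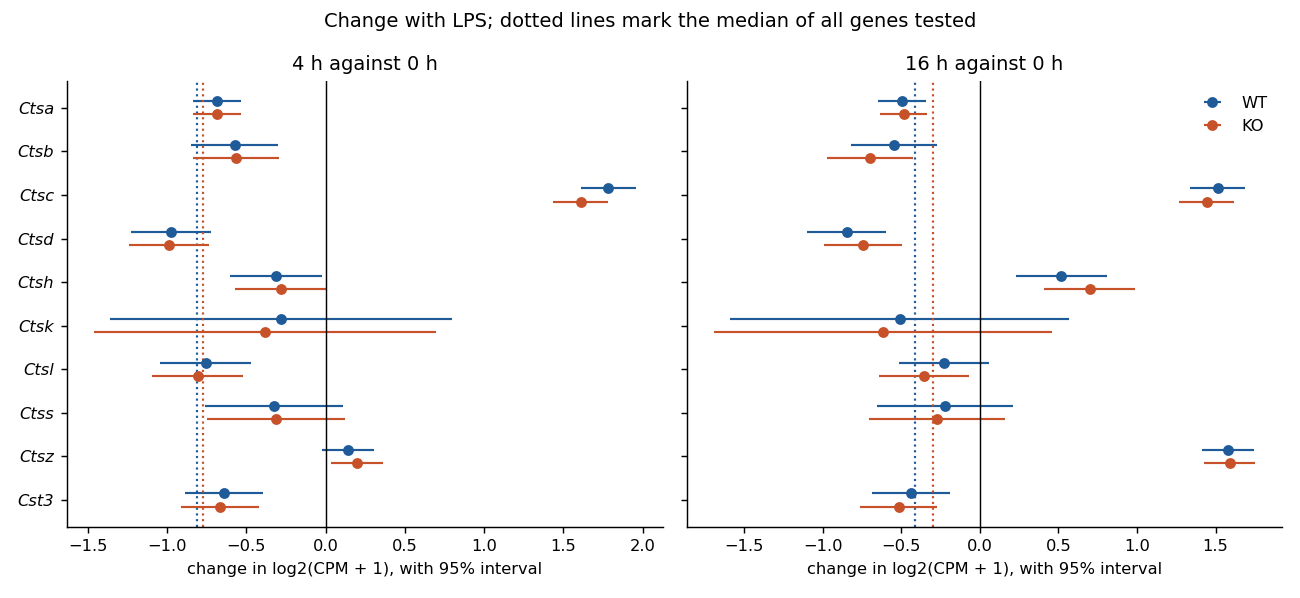
Change in log2(CPM + 1) of each gene from 0 to 4 h and from 0 to 16 h of LPS, in WT and KO macrophages, with 95% confidence intervals; the dotted lines mark the median of all 12058 genes tested. Ctsc, Ctsz at 16 h and Ctsh at 16 h lie above 0, and at 4 h the other genes lie between -0.99 and 0.20.

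The KO was compared with WT at each time. None of the 10 genes was called by limma at 0, 4 or 16 h, where 0.44%, 4.19% and 30.5% of all genes were called. At an unadjusted p under 0.05 there was 1 at 0 h (Ctsc) and 0 at 4 and 16 h. The lowest adjusted p among the 10 was 0.345 at 0 h, 0.289 at 4 h and 0.162 at 16 h. The median of the 10 was -0.08, -0.09 and -0.12 (log2) at the 3 times, beside 0.00, 0.04 and 0.12 over all genes. After rescaling none of the 10 was called at any time, and the median of the 10 was -0.07, -0.13 and -0.22. The 95% intervals of the 9 genes other than Ctsk reached no further than -0.59 (Ctss at 16 h) and 0.53 (Ctsh at 16 h). Groups did not overlap for 1, 2 and 3 of the 10 genes, beside 14.2%, 22.4% and 48.7% of all genes.

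Ctsc was higher in every KO library than in every WT library at 0 h (0.22, 95% interval 0.04 to 0.39, adjusted p = 0.345) and at 16 h (0.15, interval -0.03 to 0.32, adjusted p = 0.188). Rescaled, the 16 h value was 0.05 (adjusted p = 0.771). Ctsa was lower in every KO library at 4 h (-0.12) and 16 h (-0.11, or -0.21 rescaled, adjusted p = 0.0994), Ctsd at 4 h (-0.25, adjusted p = 0.289) and Ctsb at 16 h (-0.24, adjusted p = 0.162). At 16 h, leaving out KO 16 h replicate 3 gave 2 calls, Cst3 at -0.34 (adjusted p = 0.0232) and Ctsl at -0.36 (adjusted p = 0.0403). That library was the highest of the KO 16 h libraries in both genes.

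Whether the response to LPS differed between genotypes was tested with the interaction term. None of the 10 was called from 0 to 4 h, from 0 to 16 h or from 4 to 16 h, and none had an unadjusted p under 0.05, beside 0.00829%, 6.45% and 4.06% of all genes called. For Ctsc the rise at 4 h differed by -0.17 (95% interval -0.42 to 0.07), KO minus WT. For Ctsz the change at 16 h differed by 0.01 (-0.22 to 0.24), and for Ctsh by 0.18 (-0.23 to 0.59).

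Ctsk, the collagen-degrading cathepsin of osteoclasts (chr3:95499210-95509387), was low in macrophages, and its highest KO values came from 1 replicate. WT libraries held 8.19, 5.96 and 7.81 CPM at 0 h, 5.02, 5.92 and 6.53 at 4 h and 5.19, 4.49 and 4.76 at 16 h. KO libraries held 8.52, 27.03 and 6.82 CPM, then 7.12, 24.8 and 3.49, then 5.28, 14.4 and 5.01. Replicate 2 is the second value of each 3, and the other KO libraries lay at 3.49 to 8.52 CPM. KO replicate 1 was slightly above every WT library of its time, at 8.52, 7.12 and 5.28 CPM against at most 8.19, 6.53 and 5.19. KO replicate 3 was within the WT range at 0 and 16 h and below it at 4 h. The KO minus WT difference was 0.63, 0.53 and 0.52 at the 3 times (SE 0.512), and 0.06, -0.17 and 0.08 without KO replicate 2. Without it the KO change at 4 h became -0.51 (adjusted p = 0.0484, from -0.38, adjusted p = 0.487).

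KO replicate 2 was the highest library at its time in both Ctsk and the stromal markers. The 10 markers, among them the collagen gene Col1a1 and the matrix proteoglycan gene Dcn, summed to 515 to 960 CPM in WT at 0 h, 425 to 746 at 4 h and 623 to 1161 at 16 h. In KO replicates 1 and 3 they summed to 598 to 1672 CPM. KO replicate 1 was above every WT library of its time (1264, 1049 and 1672 CPM at 0, 4 and 16 h), and KO replicate 3 was within the WT range. From 0 to 4 h the marker sums and Ctsk were both lower in each replicate of both genotypes. The marker sums were highest at 16 h in each replicate, while Ctsk was lowest then in KO replicates 1 and 2 and WT replicates 2 and 3. In WT replicate 1 and KO replicate 3 Ctsk was lowest at 4 h. The 8 osteoclast markers summed to 195 to 310 CPM over all 18 libraries, with 4 to 6 of the 8 at 1 CPM or more. The part of stromal RNA in the Ctsk values was not tested. Ctsk and Ctss are neighbours on chromosome 3, 17398 bases apart with 0 protein-coding genes between them. KO replicate 2 was the highest KO library for Ctsk and the lowest for Ctss at each time. The low values were not particular to Ctss. KO replicate 2 was also the lowest KO library at each time for Ctsa, Ctsb, Ctsc, Ctsd, Ctsh, Ctsl and Ctsz. For Cst3 it was the lowest only at 16 h.

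**Figure D3:**
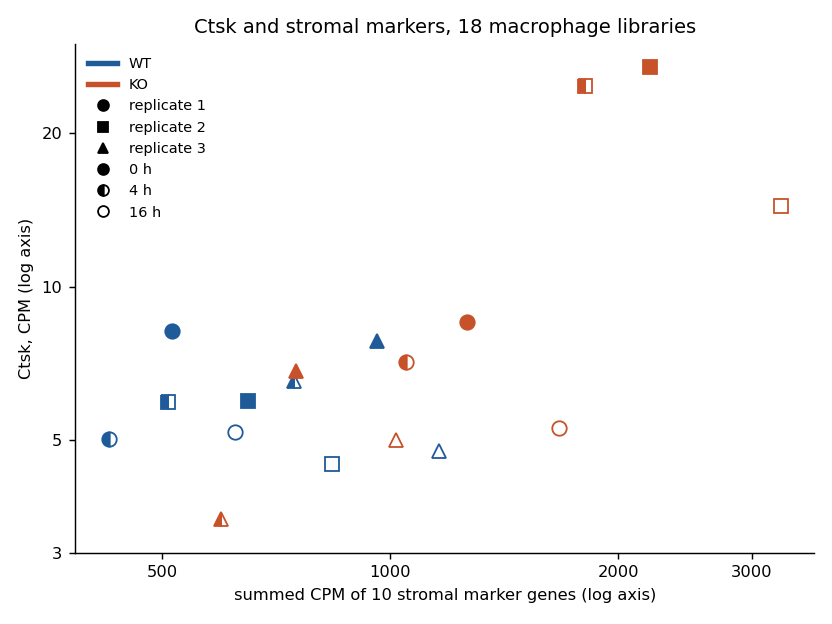
Ctsk CPM against the summed CPM of 10 stromal markers in the 18 macrophage libraries, both axes logarithmic, with colour for genotype, shape for replicate and fill for time. The 3 libraries of KO replicate 2 lie at the upper right (14.4 to 27.0 CPM of Ctsk, 1805 to 3276 CPM of markers), and the other 15 hold at most 8.52 CPM of Ctsk.

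Genes of the same pathway gave the background for these changes. The other inhibitors included Cst7, which encodes cystatin F, an inhibitor of cathepsin C and other cysteine cathepsins. Cst7 rose from 2.15 ± 0.724 to 30.3 ± 1.22 CPM at 4 h in WT (log2 3.34, adjusted p = 5.28e-12) and to 58.8 ± 5.303 CPM at 16 h. At 16 h Cst7 was lower in KO, at 31.3 ± 7.47 CPM (-0.91, adjusted p = 0.00128). The cytosolic inhibitor Cstb was -0.24 at 4 h (0.60 after rescaling) and 0.78 at 16 h in WT. Of 3 other cystatins tested, 1 rose and 1 fell at 4 h (2 and 0 after rescaling) and 3 rose at 16 h under both scalings. The 3 other cathepsins tested all fell at 4 h (median -0.52), and after rescaling 1 of them was higher and 0 lower.

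Of 8 other lysosomal peptidases, 7 fell at 4 h in WT (median -0.70) and 5 at 16 h (3, with 2 higher, after rescaling), with Tpp1, a tripeptidyl peptidase, at -0.74 (0.11 after rescaling) and -0.77. Of 21 glycosidases and sulfatases, 20 fell at 4 h (median -0.86). At 16 h 15 fell and 3 rose (11 and 6 after rescaling), beside 56.5% of all genes called down and 18.3% up. Sgsh, a sulfatase of heparan sulfate breakdown, fell from 92.2 ± 2.65 to 6.99 ± 0.182 CPM at 4 h. Of 16 lipid and phosphate hydrolases 12 fell and 2 rose at 4 h, with Lipa, the acid lipase, at -1.65. Of 18 lysosomal membrane proteins 15 fell and 1 rose at 4 h, and of 16 subunits of the vacuolar ATPase, the proton pump that acidifies the lysosome, 13 fell and 2 rose. The counts at 4 h stand beside 71.3% of all genes called down and 15.6% up, and after rescaling they became 4 down and 6 up for glycosidases, 5 and 6 for lipid and phosphate hydrolases, 6 and 6 for membrane proteins and 3 and 11 for the ATPase. Class II loading genes gave 5 down and 0 up of 10.

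The factors that bind the CLEAR element, and their relative Tfec, moved in different directions. Tfeb fell from 29.98 ± 2.48 to 0.749 ± 0.2003 CPM at 4 h (-4.15, adjusted p = 1.18e-13) and stood at 20.03 ± 2.54 CPM at 16 h. Mitf rose at both times (1.2 and 1.01). Tfec rose at 4 h (1.84) and fell at 16 h (-0.94). Tfe3 was -0.52 at 4 h, the opposite sign after rescaling, and 0.58 at 16 h.

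Between genotypes the pathway lists differed in how many members were called. At 16 h 10 of 21 glycosidases and sulfatases were lower in KO and 0 higher (median -0.22, beside 0.12 over all genes and 9.65% of all genes called down and 20.9% up). After rescaling it was 11 lower and 0 higher, beside 27.2% of all genes called (13.8% up, 13.4% down). Gla, alpha-galactosidase, held 123 ± 20.1 CPM in KO and 240.2 ± 11.3 in WT (-0.97, adjusted p = 5.37e-05). Of 8 other peptidases only Lgmn was called, at 1013 ± 154 CPM in KO and 1373 ± 98.9 in WT (-0.45, adjusted p = 0.0185). Lgmn encodes legumain, an asparaginyl endopeptidase that helps mature several cathepsins. Membrane proteins gave 5 lower and 1 higher of 18, ATPase subunits 5 lower and 1 higher of 16, and lipid and phosphate hydrolases 0 lower and 4 higher of 16, or 2 and 2 after rescaling. At 4 h 4 glycosidases were lower and 0 higher, beside 4.19% of all genes called (218 down and 287 up of 12058). At 0 h, where 0.44% of all genes were called, the only call in these lists was Gnptab (-0.37, adjusted p = 0.00844). Gnptab encodes the enzyme that starts the mannose 6-phosphate tag on lysosomal hydrolases.

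The genes whose log2 values followed a member most closely over the 18 macrophage libraries were found by Pearson correlation. These libraries form 6 groups and share the scaling of 1 table, so the values are descriptions. Ctsa and Ctsd were each other's closest gene (r = 0.987). Cst3 followed Dnase1l1 (0.968) and Ctsd (0.952), and Ctsb followed the lysosomal hydrolase genes Fuca1 (0.966) and Glb1 (0.959). Ctsc followed Ube2f (0.996) and Socs3 (0.995), Ctsz followed Fth1 (0.993) and Rac2 (0.991), and Ctsh followed H2bc4 (0.968) and Gngt2 (0.956). Ctsl followed Pip4p1 (0.971) and Apobec1 (0.955). The closest genes to Ctss were further off, Pld3 (0.889) and Cst3 (0.798), and Ctsk followed Gpc4 (0.908) and Sdc2 (0.894), both proteoglycan genes. The Ctsk values include KO replicate 2, which held the highest Ctsk, and were not computed without it. Ctsc and Ctsa ran opposite (r = -0.944).

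Promoter windows of the annotated starts were read from RefSeq (GRCm38.p6, 250 bases before to 50 after the start). 8 of the 10 genes matched, with 9 windows, since Ctsa has 2. The motifs were chosen after the windows had been seen. CACGTG, the E-box, was in 3 of the 9 windows and in 7.15% of all 32851 windows. TCACGTGA, the core of the CLEAR element, which contains the E-box, was in 2 of 9 (the second of Ctsa and that of Ctsd) and in 0.974% of all. GGAAGT, a form of the ETS core, was in 4 of 9 (Ctsa, Ctsc, Ctsk and Ctss) and in 23.8% of all. The core of interferon response elements, GAAA followed after any 2 bases by another GAAA, was in 1 of 9 (Ctss) and in 3.44% of all. Both strands were searched, and a match is a description of these letters. The windows of Ctsd and Ctsa are shown because both carry TCACGTGA and their levels ran closest together. Each is printed from 250 bases before to 20 after the start, on the gene's strand, with every CACGTG in capitals. The start base counts as 0. In Ctsd (chr7:142387808-142388077, minus strand) the E-boxes begin at -245 and -98, and in Ctsa (chr2:164833523-164833792, plus strand) at -12 and 5.
Ctsd: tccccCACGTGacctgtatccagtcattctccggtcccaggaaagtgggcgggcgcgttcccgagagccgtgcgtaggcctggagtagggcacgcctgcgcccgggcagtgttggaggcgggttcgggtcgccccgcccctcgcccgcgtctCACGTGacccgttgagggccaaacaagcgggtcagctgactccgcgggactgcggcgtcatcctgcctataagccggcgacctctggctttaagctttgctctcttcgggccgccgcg
Ctsa: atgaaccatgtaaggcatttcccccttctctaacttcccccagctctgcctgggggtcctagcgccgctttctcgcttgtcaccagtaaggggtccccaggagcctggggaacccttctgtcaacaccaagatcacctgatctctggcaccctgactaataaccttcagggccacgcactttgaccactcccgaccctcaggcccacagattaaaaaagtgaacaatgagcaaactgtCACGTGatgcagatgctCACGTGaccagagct

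In T cells Ctss was lower in the libraries labelled KO or W250S than in WT in each of the 4 comparisons. Naive libraries labelled KO held 13.6, 14.5, 12.95 and 13.1 CPM and their WT controls 19.4, 17.9 and 16.7. The log2 difference was -0.38 (SE 0.0787, limma adjusted p = 0.0121). Naive W250S libraries held 20.02, 16.5 and 21.8 CPM and their own WT controls 32.2, 25.3 and 26.9, a difference of -0.51 (SE 0.124, adjusted p = 0.0211). In each naive set every altered library lay below every WT library.

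In pathogenic Th17 cells W250S libraries held 3.22, 4.25 and 2.78 CPM and WT libraries 7.32, 6.68 and 8.71. This was the largest of the 4 differences, -0.96 (SE 0.132, adjusted p = 0.00556), or 1.95-fold lower on the log2(CPM + 1) scale. In non-pathogenic Th17 cells W250S libraries held 3.44, 3.16 and 4.68 CPM and WT libraries 5.04, 6.08 and 5.57, a difference of -0.47 (SE 0.124, adjusted p = 0.0424). Neither pair of groups overlapped. Each T cell table was scaled on its own, so the difference between the cultures was not tested. The 4 comparisons share no control library.

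Only the call in pathogenic Th17 cells held with each library left out in turn (adjusted p 0.00386 to 0.0401). In naive cells the call ended without WT replicate 1 of the labelled KO set (range -0.44 to -0.33) and without W250S replicate 1 or 2 of the W250S set (range -0.60 to -0.41). In non-pathogenic Th17 cells it ended without W250S replicate 1 or 2 or WT replicate 2 or 3 (range -0.61 to -0.38). The naive W250S and non-pathogenic Th17 calls also ended with no filter on low values. The values rest on 159 to 1947 reads of Ctss a library. The share of all genes called was 8.03% in the labelled KO set (3.64% down), 4.16% in naive W250S (0.855% down), 2.06% in pathogenic (1.16% down) and 7.06% in non-pathogenic Th17 cells (2.94% down). Of the 8 genes tested, 2, 2, 1 and 1 were called in the same order.

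Cells rich in Ctss were looked for by their markers. The macrophage markers (4 or 5 of 10 in each T cell table) summed to 2.11 to 2.32 CPM in WT and 1.87 to 3.19 in libraries labelled KO, with 0 or 1 marker at 1 CPM or more. In the naive W250S set they summed to 1.5 to 1.8 CPM in WT and 0.693 to 0.879 in W250S, where Itgam was 1.04 ± 0.143 against 0.266 ± 0.125 CPM (SD, n = 3). In Th17 cells they summed to 1.06 to 1.59 (WT) and 0.946 to 1.27 (W250S) CPM in pathogenic and 1.46 to 1.61 and 0.724 to 1.09 in non-pathogenic cultures. Of the defining genes, Csf1r was at most 0.278 CPM in any T cell library. The B cell markers (3 to 5 of 7 in each table) had only Ighm at 1 CPM or more in every table, and Cd79a was at most 0.693 CPM. B cell sums were 184 to 190 CPM in WT and 157 to 196 in labelled KO libraries, 247 to 261 and 223 to 247 in the W250S naive set, 31.8 to 37.1 and 27.6 to 31.7 in pathogenic and 27.9 to 33.8 and 24.8 to 30.2 in non-pathogenic Th17 cells. Of the dendritic cell markers (3 or 4 of 8 in each table) only Ccr7, which naive T cells also express, reached 1 CPM. These lists gave sums of 268 to 281 and 255 to 278 CPM in the labelled KO set, 341 to 355 and 344 to 374 in the W250S naive set, 150.1 to 182 and 108 to 158 in pathogenic and 138 to 193 and 113 to 149.9 in non-pathogenic Th17 cells, WT first. Other marker sums also differed without overlap. Osteoclast markers (4 to 7 of 8 in each table) were higher in the altered libraries, at 249 to 268 CPM in WT against 322 to 355 in the labelled KO set and 291 to 312 against 353 to 419 in naive W250S cells. Most of that gap was Itgb3, an integrin gene, at 107 ± 3.88 against 173 ± 9.25 CPM and 124 ± 12.6 against 197 ± 21.2, while Oscar was at most 0.133 CPM in any naive library. In Th17 cells the same sums were 156 to 163 against 164 to 177 CPM (pathogenic) and 189 to 199 against 199 to 212 (non-pathogenic). Stromal markers summed to 19.9 to 29.2 CPM in WT against 39.2 to 47.7 in W250S pathogenic cells and 3.94 to 5.93 against 8.56 to 10.4 in non-pathogenic cells, nearly all of it Lum, with Col1a1 at most 0.327 CPM. The Th17 markers were higher in W250S in both cultures, at 119.7 to 147 against 154 to 209 CPM and 129 to 157 against 180.4 to 224. T cell markers in pathogenic cells (1159 to 1250.4 against 1085 to 1134 CPM) and CD8 and NK markers in non-pathogenic cells (2.21 to 2.57 against 1.53 to 2.19) were lower. The part of these marker differences in the Ctss differences was not tested.

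Ctsl was higher in both naive sets and did not pass the test in either Th17 culture. Libraries labelled KO held 3.41, 2.54, 2.66 and 2.92 CPM and WT 1.47, 1.92 and 1.74, a difference of 0.52 (SE 0.115, adjusted p = 0.0187, with 4.39% of all genes called up). Naive W250S libraries held 3.56, 3.98 and 4.21 CPM and WT 2.98, 2.21 and 1.65, a difference of 0.60 (SE 0.153, adjusted p = 0.0288, with 3.31% called up). In each naive set every altered library lay above every WT library.

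The pathogenic Th17 cultures held 2.19, 2.301 and 1.98 CPM of Ctsl in W250S and 1.996, 2.08 and 2.501 in WT (-0.01, 95% interval -0.25 to 0.22). The non-pathogenic cultures held 2.095, 2.11 and 2.15 and 1.57, 1.44 and 2.15 (0.21, interval -0.06 to 0.47). In both cultures the groups overlapped. Ctsl had 77 to 254 reads a T cell library, and its naive calls did not hold with each library left out. The labelled KO call ended without KO replicate 1, WT replicate 1 or WT replicate 3 (range 0.45 to 0.57). The W250S call ended with no filter on low values, without any 1 of the W250S replicates or WT replicate 2 or 3 (range 0.46 to 0.75), and with median-ratio scaling (0.54, adjusted p = 0.115, where 3.05% of all genes were called).

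**Figure D4:**
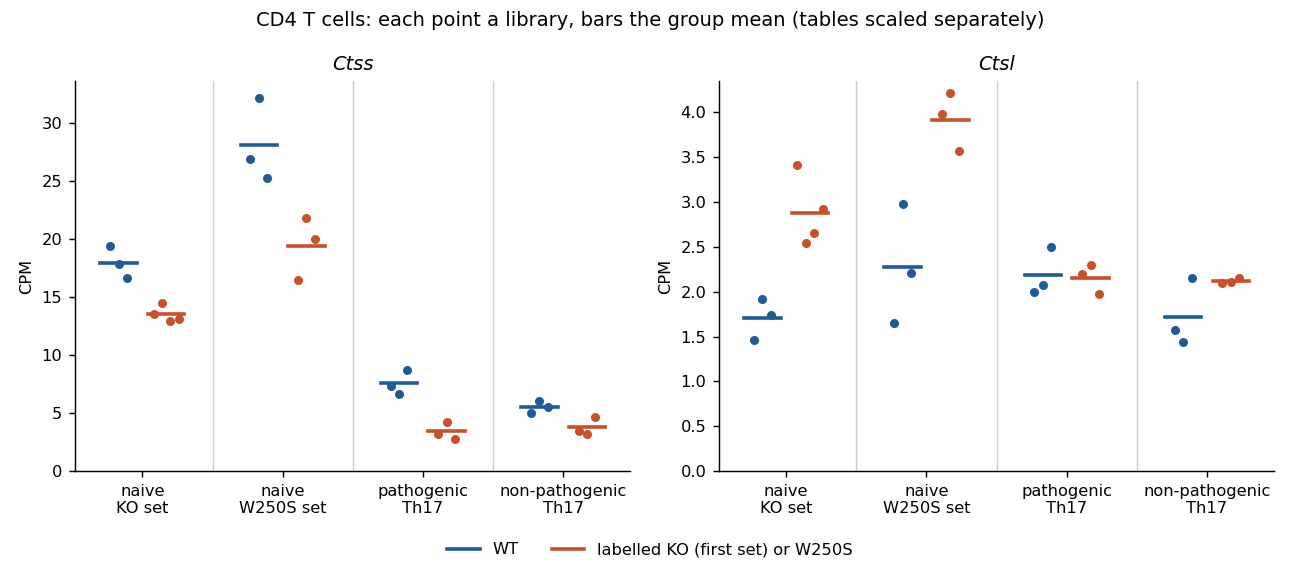
CPM of Ctss and Ctsl in each library of the 4 T cell tables, with a bar at each group mean; the tables were scaled separately. In Ctss every altered library lies below its WT controls, and in Ctsl every altered naive library lies above them while the Th17 groups overlap.

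Among the other 6 genes tested in T cells none was called. Groups did not overlap for 3, 5, 3 and 1 of the 8 genes in the labelled KO, naive W250S, pathogenic and non-pathogenic sets, beside 21.2%, 21.7%, 24.4% and 31.6% of all genes. The third gene in the labelled KO set was Ctsc, with 21.2, 23.95, 25.5 and 23.7 CPM against 27.1, 26.5 and 29.05 in WT (-0.22, adjusted p = 0.106). In naive W250S cells Ctsc was -0.25 (adjusted p = 0.304), Ctsa 0.19 and Ctsz 0.21. In pathogenic Th17 cells Ctsb was -0.20 (adjusted p = 0.0874) and Cst3 0.16 (adjusted p = 0.348). Ctsa in the labelled KO set was 0.35 (adjusted p = 0.0572). Ctsk was below 1 CPM and had 0 to 16 reads in each naive library, so it was not tested.

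Of the pathway lists in T cells the glycosidases and sulfatases gave 1 up and 3 down of 20 in labelled KO cells and 0 and 1 of 20 in naive W250S. They gave 0 and 3 of 21 in pathogenic and 0 and 4 of 20 in non-pathogenic Th17 cells. Of all genes 4.39% were called up and 3.64% down in labelled KO cells, and 3.31% and 0.855% in naive W250S. In pathogenic and non-pathogenic Th17 cells 1.16% and 2.94% of all genes were called down. Manba, beta-mannosidase, was lower in all 4, by values of -0.53, -0.62, -0.44 and -0.51 in that order. The class II loading genes gave 2 up and 1 down of 3 tested in labelled KO cells, with H2-Ob at 0.53, and 2 up and 1 down of 5 in naive W250S cells, with H2-Ob at 0.59. H2-Ob encodes a chain of H2-O, which restrains peptide loading. Vacuolar ATPase subunits gave 0 calls of 15 in labelled KO cells and 0 of 14 in naive W250S cells.

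ATAC-seq of naive CD4 cells measured how accessible these genes were. Libraries held 6.19 to 9.71 M counts in peaks in WT and 9.61 to 13.7 M in those labelled KO, over 86911 peaks, of which 47000 were tested. The submitters annotated 21 peaks to 8 of the 10 genes, with none for Ctsh or Ctsk, and 12 were tested, 8 of them at start sites. None was called by edgeR's quasi-likelihood test or by DESeq2, where edgeR called 0.00851% of all peaks. At an unadjusted p under 0.05 there were 2 of the 12, both in Ctss, beside 9.87% of all peaks. Without WT replicate 1 edgeR called 1882 peaks up and 188 down over all peaks, and 0 of the 12 at these genes.

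The start-site peak of Ctss (chr3:95526519-95526999) held 4.06, 5.6 and 3.57 CPM in WT and 3.48, 2.41 and 1.91 in libraries labelled KO. The groups did not overlap, and the log2 difference was -0.76 (SE 0.294, adjusted p = 0.425). A peak in intron 3 (chr3:95541941-95542485) went the other way, with 0.339, 1.21 and 1.69 in WT and 2.32, 2.73 and 2.72 in labelled KO libraries (1.13, SE 0.403, adjusted p = 0.393). It rests on 2, 8 and 17 counts in WT and 32, 26 and 37 in labelled KO libraries. Leaving out each library in turn moved the start-site value between -1.04 and -0.54 and the intron value between 0.80 and 1.66. The other start-site peaks differed by 0.01 (Ctsl), -0.02 (Ctsb), -0.04 (Ctsa), -0.07 (Ctsc), -0.11 (Ctsz), -0.12 (Cst3) and -0.17 (Ctsd), none called.

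The Ctss start-site peak covers the promoter window of the gene, which is shown because Ctss is the gene called in all 4 T cell comparisons. It runs from 250 bases before to 20 after the start (chr3:95526536-95526805, plus strand, GRCm38.p6), with GGAAGT and the interferon response core, on either strand, in capitals. The first begins at -2 and the second at -21.
Ctss: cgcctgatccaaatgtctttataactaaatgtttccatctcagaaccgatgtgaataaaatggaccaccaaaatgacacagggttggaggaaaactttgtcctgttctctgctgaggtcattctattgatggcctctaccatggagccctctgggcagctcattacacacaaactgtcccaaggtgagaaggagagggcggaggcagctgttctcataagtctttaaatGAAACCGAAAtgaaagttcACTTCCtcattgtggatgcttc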

How the data were processed

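RNA was measured in 43 libraries and open chromatin in 6. The deposited RNA values are CPM, scaled by the authors over all reads of a library, not only those of the listed genes. The deposited peak table holds expected counts, of which 60 values were not whole and were rounded. Per the submitters' processing notes the build was mm10 and the tools included BWA, Bowtie2, MACS2, DESeq2 and Partek 10.0.21.0411; their roles are not given in the sources used here. Groups and replicate numbers came from the labels. The members and the gene lists were chosen with earlier results of these data known.

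Genes that reached 1 CPM in 3 or more libraries of a table were tested as log2(CPM + 1) with limma 3.58.1 (empirical Bayes with a trend, two-sided, R 4.3.3), all 18 macrophage libraries in 1 fit and each T cell table in its own, with Benjamini-Hochberg adjustment over all genes and a threshold of 0.05. A fold change is on the log2(CPM + 1) scale, which understates changes of low genes. Peaks were tested with edgeR 4.0.16 (quasi-likelihood, TMM) on the rounded deposited counts, with DESeq2 1.42.0 as an alternative. The scripts were tested on simulated data. Alternatives were other pseudocounts (0.1 and 5), no filter, median-ratio scaling, replicate blocks, leaving out each library, and leaving out KO replicate 2 at all times (chosen after seeing the data).

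All 10 members were tested in every macrophage comparison and 8 in each T cell comparison, but not every member's value is printed for each. Of each list, up to 4 called genes with the largest change and a mean of at least 5 CPM could be named, and for each member the 2 genes most like it. Same-numbered WT macrophage libraries deviated together across times (r 0.108 to 0.307), as did KO libraries at 4 and 0 h (0.185 to 0.533). KO libraries gave 0.0566 to 0.518 between 0 and 16 h and 0.0759 to 0.403 between 4 and 16 h. The main tests were unpaired, and fits with the replicate number as a block were run as an alternative. Between macrophage genotypes same-numbered libraries gave -0.197 to 0.123, and between T cell groups -0.178 to 0.324. 1 repeated row was dropped, and 19 or 20 names in each T cell table had turned into dates and were not used.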

Additional observations from a re-analysis of the deposited data

How the results depend on the processing

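Depth limits Ctsk (0 to 16 reads in a naive T cell library) and Ctsl (77 to 254 reads in a T cell library). The test of recovered whole reads with edgeR was not run on RNA, because only 90.9% to 96.1% of low values came out whole and 95% was asked for. All 152 values kept their side of the threshold with a pseudocount of 0.1 or 5, as did all 30 with each macrophage time fitted alone. Leaving out 1 library kept 1050 of 1100 values on their side of the threshold and in direction or within their error, with 32 losing and 11 gaining a call and 7 uncalled values turning in sign by more than their error.

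Median-ratio scaling changed most. It gave 4 called members in WT at 4 h against 0 h (from 7), 4 in WT at 16 h (from 7), 3 in KO at 4 h (from 7), 4 in KO at 16 h (from 8) and 1 in naive W250S cells (from 2). Values that turned were, in WT at 4 h, Cst3 0.21, Ctsa 0.17, Ctsb 0.28, Ctsh 0.53, Ctsl 0.0937 and Ctss 0.53; in WT from 4 to 16 h, Ctsa -0.23 and Ctsb -0.39; in KO at 4 h, Cst3 0.13, Ctsa 0.11, Ctsb 0.23 and Ctsh 0.51; and in KO from 4 to 16 h, Cst3 -0.32, Ctsa -0.27 and Ctsl -0.0206. The scaling itself moves all values by the shift of the median gene. With no filter on low values 0 members were called in naive W250S cells (from 2) and 0 in non-pathogenic Th17 cells (from 1), where more genes were tested.

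With the replicate number as a fixed block 8 members were called in WT from 4 to 16 h (from 5). In the labelled KO naive set, whose numbers did not pair the libraries, the block gave 4 (from 2), adding Ctsa (0.43) and Cst3 (0.34). Over all blocked fits 14 values gained a call and 108 of 122 stayed. Counts of called members with 1 library left out ran from 0 to 2 for KO against WT at 16 h, 0 to 3 in the labelled KO set, 0 to 2 in naive W250S and 0 to 1 in non-pathogenic Th17 cells. The cause of these changes was not tested.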
